A study of Mus musculus with 312 samples.

Results

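The 9 genes B2m, H2-K1, H2-D1, Tap1, Tap2, Psmb8, Psmb9, Irf1 and Nlrc5 were followed through single cells of the mouse mammary gland. They were chosen by symbol as genes of MHC class I antigen presentation and of the interferon response, and all 9 were found among the 25136 genes used. The rule itself used no measured value. RNA had been counted in 312 cells of FVB/NJ mice that the labels call basal, 112 from adult mice with the mark (2) in the title, 125 from adult mice without it, and 75 from pregnant mice. These are called the marked adult set, the unmarked adult set and the pregnancy set. The labels name neither the day of pregnancy nor any animal, and they do not explain the mark. According to the methods, adult basal cells were sorted as Lin-CD29hiCD24+ and captured on the Fluidigm C1, a chip that isolates single cells and makes cDNA in each chamber. In the study, cells of pregnant mice run on this chip are called total epithelium, and more of them are counted than the 75 here. Whether they include these cells is not stated, so the basal identity of the pregnancy set rests on its labels. All pregnancy titles have 1 form, so the stage of a cell and its capture cannot be told apart.

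MHC class I molecules show fragments of the cell's own proteins to cytotoxic T cells. A heavy chain, such as those encoded by H2-K1 and H2-D1, pairs with beta-2 microglobulin, the product of B2m. The peptides are cut by the proteasome, whose catalytic subunits are replaced in the immunoproteasome by Psmb8, Psmb9 and Psmb10, and are carried into the endoplasmic reticulum by the transporter made of Tap1 and Tap2. Interferons induce these genes through IRF1 and NLRC5, a transactivator of class I genes. Mammary basal cells are contractile and surround the luminal cells of ducts and alveoli.

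Promoter windows are printed because 7 of the 9 members, all but Tap2 and Nlrc5, had one in the RefSeq table of GRCm38.p6, the build of the counts, and because neighbouring members with 1 shared window can be set against their RNA. Each window runs from 250 bases before to 50 bases after the start, and it comes from the C57BL/6J reference, not from FVB/NJ. For H2-K1 and Irf1, which have several windows, 1 is shown. Capitals mark letters of the motifs described after the sequences. The B2m window is chr2:122147437-122147736 on the plus strand, and the Irf1 window is chr11:53769764-53770063 on the plus strand. The others lie in the H2 region of chromosome 17, H2-K1 at chr17:34000284-34000583 on the minus strand, H2-D1 at chr17:35262844-35263143, Tap1 at chr17:34187306-34187605 and Psmb8 at chr17:34197945-34198244, these 3 on the plus strand.
B2m: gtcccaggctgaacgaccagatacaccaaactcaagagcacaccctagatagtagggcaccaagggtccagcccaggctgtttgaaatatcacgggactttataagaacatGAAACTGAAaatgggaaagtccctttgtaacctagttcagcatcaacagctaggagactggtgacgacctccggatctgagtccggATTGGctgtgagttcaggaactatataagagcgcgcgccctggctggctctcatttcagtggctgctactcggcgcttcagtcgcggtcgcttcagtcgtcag
H2-K1: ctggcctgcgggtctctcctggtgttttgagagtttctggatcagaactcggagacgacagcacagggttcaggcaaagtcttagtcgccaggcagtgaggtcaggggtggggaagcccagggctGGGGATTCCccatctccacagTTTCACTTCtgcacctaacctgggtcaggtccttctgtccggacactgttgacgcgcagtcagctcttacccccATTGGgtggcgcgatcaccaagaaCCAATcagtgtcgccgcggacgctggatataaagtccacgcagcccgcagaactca
H2-D1: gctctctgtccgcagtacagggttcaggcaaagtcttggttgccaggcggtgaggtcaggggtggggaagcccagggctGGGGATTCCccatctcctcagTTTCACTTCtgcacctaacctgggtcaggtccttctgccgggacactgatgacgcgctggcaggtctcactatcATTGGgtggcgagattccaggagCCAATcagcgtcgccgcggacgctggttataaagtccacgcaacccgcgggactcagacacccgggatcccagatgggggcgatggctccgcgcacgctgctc
Tap1: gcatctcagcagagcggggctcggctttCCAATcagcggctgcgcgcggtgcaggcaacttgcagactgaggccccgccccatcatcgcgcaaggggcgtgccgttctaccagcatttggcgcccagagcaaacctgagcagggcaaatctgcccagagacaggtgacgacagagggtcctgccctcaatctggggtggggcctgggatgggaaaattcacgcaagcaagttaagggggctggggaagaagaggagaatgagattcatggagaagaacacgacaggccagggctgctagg
Psmb8: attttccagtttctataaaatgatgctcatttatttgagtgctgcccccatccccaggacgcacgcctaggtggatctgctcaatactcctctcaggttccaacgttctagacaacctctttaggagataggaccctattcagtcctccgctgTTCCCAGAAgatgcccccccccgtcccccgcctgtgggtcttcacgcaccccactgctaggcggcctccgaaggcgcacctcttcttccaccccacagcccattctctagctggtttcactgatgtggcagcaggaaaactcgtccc
Irf1: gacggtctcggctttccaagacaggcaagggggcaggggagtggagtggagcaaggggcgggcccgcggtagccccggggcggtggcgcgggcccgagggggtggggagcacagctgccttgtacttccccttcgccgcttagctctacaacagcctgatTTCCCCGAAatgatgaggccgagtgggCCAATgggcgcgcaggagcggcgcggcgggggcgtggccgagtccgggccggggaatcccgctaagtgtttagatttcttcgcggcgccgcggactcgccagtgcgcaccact

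The letters GAAANNGAA, the core of the interferon-stimulated response element, were found in the B2m window, 139 bases before the start, and in 8.56% of all 32851 windows of the table. In the reversed order GAANNGAAA, searched after the windows had been seen, they were found in H2-K1 and H2-D1 and in 7.52% of windows. The gamma-activated site TTCNNNGAA was found in Irf1, 90 bases before the start, in Psmb8, 97 bases before it, and in 8.3% of windows. The kappa B letters GGGGATTCC were found in H2-K1 and H2-D1, which are copies of 1 ancestral gene, and in 0.25% of windows. A CCAAT box stood in every printed window other than that of Psmb8, and in 37.4% of windows. The windows of Tap1 and Psmb9, which are transcribed away from each other, shared 275 bases, and their CCAAT box is the same one. All motifs were searched on both strands, and a match is a description of letters only.

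Retained cells had 50000 or more assigned read pairs and 1000 or more detected genes outside mitochondrial, ribosomal protein and unannotated genes. This left 81 marked adult, 58 unmarked adult and 71 pregnancy cells, with median assigned reads of 174910, 101320 and 230645 and median mitochondrial shares of 9.65, 15.6 and 18.4% of all reads. Levels are CPM, read counts scaled to 1e6 assigned reads of a cell. At least 6 of 11 core basal genes were found at 100 CPM in 76 of 81 marked, 51 of 58 unmarked and 70 of 71 pregnancy cells. Immune genes stood apart in 1 retained cell, marked cell 19, which held 10 of the 12 and 3 of the core basal genes. Since each cell is 1 sample and no animal is named, a group counts as 1 sample here, without any p-value. Intervals are exact 95% intervals and cover counting error only.

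RNA of the class I molecule itself was present in nearly every cell at both stages, while that of peptide transport and the immunoproteasome was at 0 in most cells. B2m, H2-K1 and H2-D1 together held 0.294% of assigned reads in the marked set (interval 0.291 to 0.297%), 0.249% in the unmarked set (0.245 to 0.253%) and 0.250% in the pregnancy set (0.247 to 0.252%). The unmarked and pregnancy shares differed by less than their counting intervals, and pregnancy was the lowest of the 3 sets with all genes in the total (0.185%) and after thinning every cell to 50000 reads (0.243%). Their summed CPM had a median over cells of 2320 in marked, 1774 in unmarked and 2162 in pregnancy cells, and the ranges of cells overlapped throughout. All 3 genes reached 100 CPM in 59.3% of marked (47.8 to 70.1%), 44.8% of unmarked (31.7 to 58.5%) and 63.4% of pregnancy cells (51.1 to 74.5%).

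Per kilobase of exon, where levels of different genes can be compared, B2m was highest in every group, with a mean of 1129 RPKM in pregnancy. H2-D1 and H2-K1 followed at 442 and 435 RPKM in pregnancy, a difference far below the spread between cells, and Irf1 at 258 RPKM. In marked cells the order was the same, with 430, 365 and 201 RPKM for H2-D1, H2-K1 and Irf1. The other 5 members lay lower. Psmb8 had a mean of 129 RPKM in pregnancy, Tap1 of 23.6, Tap2 of 14.5, Psmb9 of 6.42 and Nlrc5 of 1.79, and the order of the last 4 rested on few cells.

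**Figure D1:**
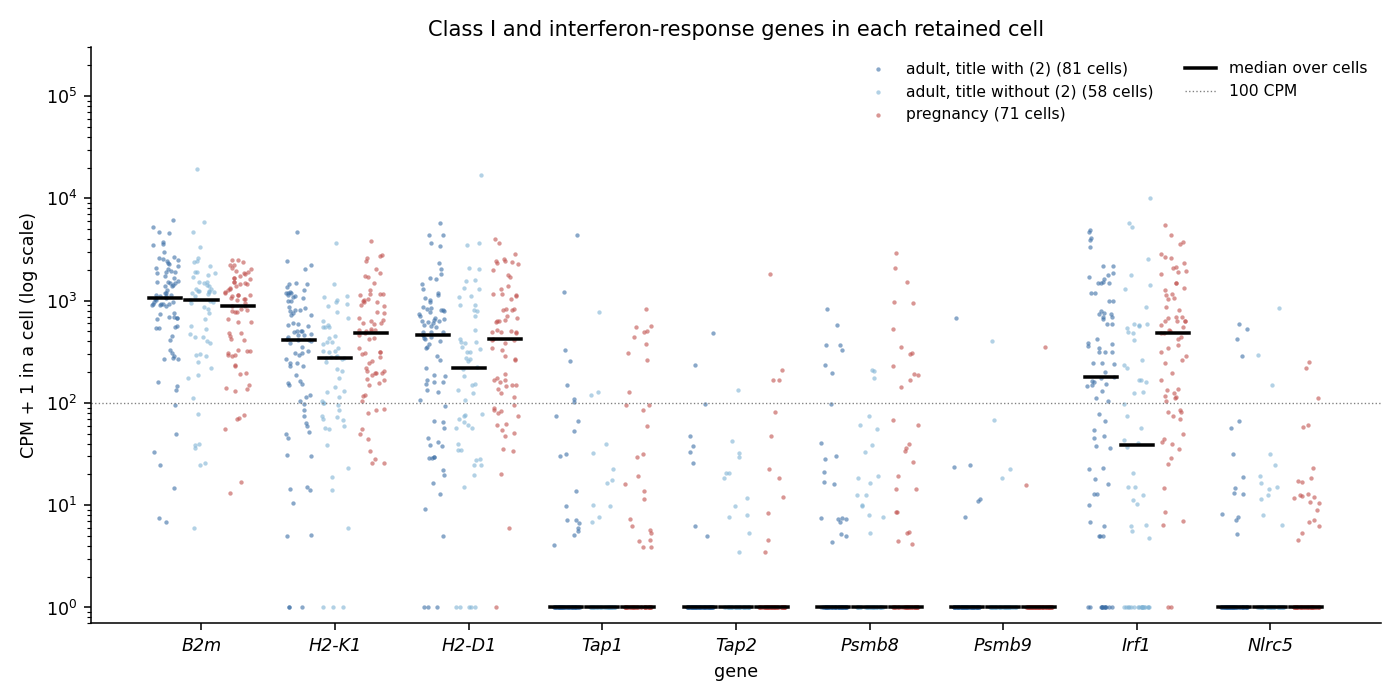
Each point is 1 retained cell, and the vertical axis is its CPM plus 1 on a log scale for each of the 9 genes in the marked adult (81 cells), unmarked adult (58) and pregnancy (71) sets, with the median as a black bar. B2m, H2-K1 and H2-D1 have medians between 218 and 1069 CPM, Irf1 differs most between groups, and the medians of Tap1, Tap2, Psmb8, Psmb9 and Nlrc5 are at 0.

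B2m (chr2:122147687-122153082), the invariant light chain, ranged over marked cells from 5.83 to 6127 CPM with a median of 1069. Over unmarked cells it ranged from 5.00 to 19295 CPM with a median of 1003, and over pregnancy cells from 12.3 to 2496 CPM with a median of 887. The groups overlapped, and what differed most was their upper end. The mean was 1383, 1447 and 969 CPM, so that the log2 ratio of pregnancy was -0.51 over marked and -0.57 over unmarked cells. A single cell, unmarked cell 156, held 23.0% of the B2m of its set, and without it the unmarked mean was 1134 CPM. The ratio over unmarked cells changed sign with the filter. With at least 100000 reads and 1500 genes per cell the log2 ratios were -0.47 over marked and 0.35 over unmarked cells. At least 100 CPM was reached in 91.4, 87.9 and 91.5% of cells.

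H2-K1 (chr17:33996012-34000619), a classical heavy chain, ranged from 0 to 4665 CPM in marked cells with a median of 412. The range was 0 to 3638 CPM in unmarked cells with a median of 271, and 24.6 to 3843 CPM in pregnancy cells with a median of 479. It was read in every pregnancy cell and was at 0 in 3 cells of each adult set. Its log2 ratio of means in pregnancy was 0.25 over marked and 0.85 over unmarked cells, and the adult sets differed from each other by -0.60 (unmarked over marked). Over all adult cells the log2 ratio of pregnancy was 0.47, less than the difference between the adult sets.

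H2-D1 (chr17:35263094-35267497), the other classical heavy chain, ranged from 0 to 5719 CPM in marked cells with a median of 456. In unmarked cells it ranged from 0 to 16945 CPM around a median of 218, in pregnancy cells from 0 to 3994 CPM around a median of 417. Means of 746, 803 and 768 CPM gave log2 ratios of pregnancy of 0.04 over marked and -0.06 over unmarked cells. The unmarked mean rested on cell 169, with 36.4% of the H2-D1 of its set, and was 520 CPM without it. Cell 169 held 2 of 11 core basal genes and 2 of the 8 endothelial genes, Egfl7 (5658 CPM) and Esam (985 CPM). Reads of H2-K1 and H2-D1 are uncertain as to copy, since the class I heavy chains of mice are near-identical in parts and FVB/NJ carries other alleles at H2 than the reference.

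Irf1 (chr11:53770014-53778374), a transcription factor that interferon induces, was the member whose presence differed most between groups. It ranged from 0 to 4917 CPM in marked cells with a median of 177, and in unmarked cells from 0 to 10170 CPM, median 37.6. In pregnancy cells it ranged from 0 to 5506 CPM with a median of 478. The ranges overlapped widely, but Irf1 was at 0 in 2 of 71 pregnancy cells against 12 of 81 marked and 18 of 58 unmarked cells. At least 100 CPM was reached in 61.7% of marked (50.3 to 72.3%), 41.4% of unmarked (28.6 to 55.1%) and 74.6% of pregnancy cells (62.9 to 84.2%). With every cell thinned to 50000 reads the shares with a read were 76.5, 56.9 and 91.5%, so the order was kept at equal depth. The log2 ratio of means was smaller than the median would give, 0.36 over marked and 0.51 over unmarked cells. With log2 values averaged over cells it became 1.48 over all adult cells. By the same change the median of all genes with a mean of 50 CPM moved to 0.38. In the unmarked set 3 cells held 60.0% of the Irf1.

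**Figure D2:**
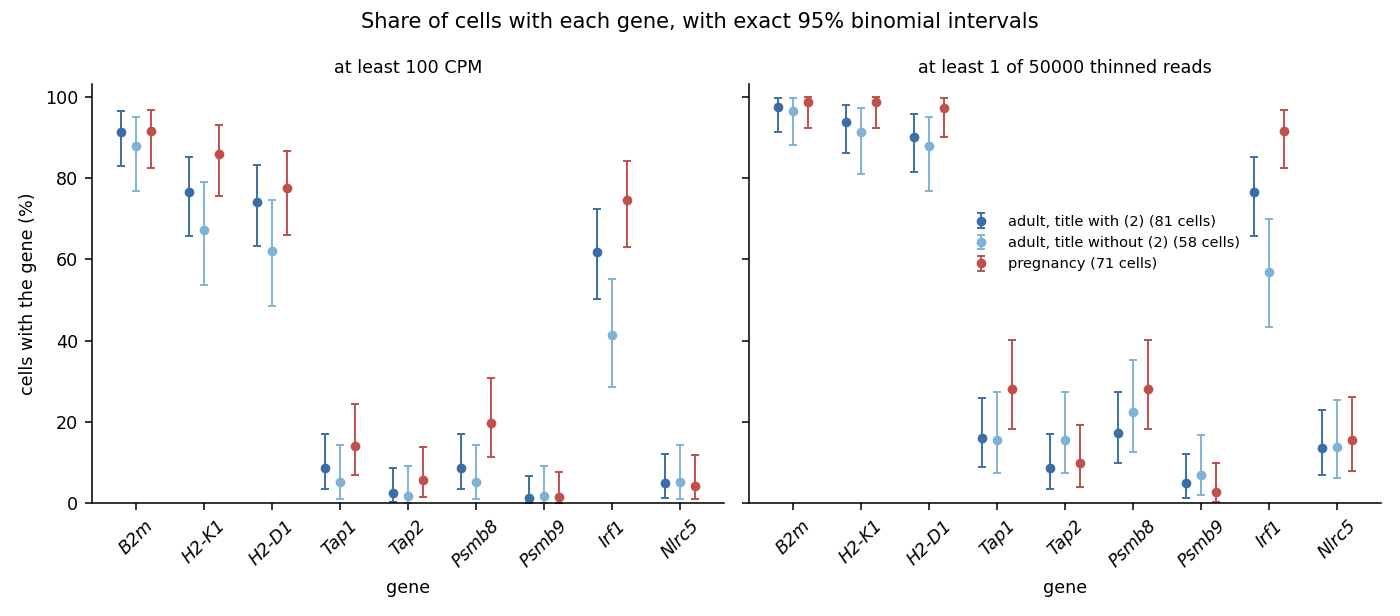
Share of cells (%) with each of the 9 genes at 100 CPM or more (left) and with at least 1 read after thinning to 50000 reads (right), with exact 95% intervals, for the marked adult, unmarked adult and pregnancy sets. Irf1 after thinning was read in 56.9% of unmarked and 91.5% of pregnancy cells, and the intervals of Tap1, Tap2, Psmb8, Psmb9 and Nlrc5 overlap between groups.

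Psmb8 (chr17:34198195-34201454), the inducible counterpart of the catalytic subunit Psmb5, had the largest log2 ratio of means between stages among the members. It ranged from 0 to 821 CPM in marked cells, from 0 to 209 CPM in unmarked cells and from 0 to 2945 CPM in pregnancy cells, with a median of 0 in each. Means of 39.1, 16.5 and 158 CPM gave log2 ratios of pregnancy of 1.77 over marked and 2.66 over unmarked cells. The difference lay in few cells. Pregnancy cells 28, 27 and 20, at 2945, 2097 and 1519 CPM, held 58.6% of the sum, and without the 3 highest cells of each group the means were 18.0, 6.68 and 68.2 CPM and the log2 ratios 1.48 and 2.23. All 3 cells held 8 or more core basal genes. With log2 values averaged over cells, which weighs single high cells less, the ratios were 0.72 and 0.78, under 2-fold. Psmb8 reached 100 CPM in 8.64% of marked (3.55 to 17.0%), 5.17% of unmarked (1.08 to 14.4%) and 19.7% of pregnancy cells (11.2 to 30.9%). In cells thinned to equal depth it was read in 17.3, 22.4 and 28.2%, with intervals that overlapped.

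Tap1 (chr17:34187556-34197225), the first chain of the peptide transporter, ranged from 0 to 4406 CPM in marked, from 0 to 767 CPM in unmarked and from 0 to 834 CPM in pregnancy cells. Means were 84.6, 20.1 and 69.7 CPM, and the ratio of pregnancy changed sign with the adult set, at -0.25 over marked and 1.40 over unmarked cells on the log2 scale. A single cell decided this. Marked cell 69 held 64.3% of the Tap1 of its set, and without the highest cell of each group the log2 ratios were 0.76 and 2.01. Without the 3 highest they were 1.31 and 2.08, past 2-fold against both sets. Tap1 was read in 25.9, 20.7 and 39.4% of cells at full depth and in 16.0, 15.5 and 28.2% after thinning. Pregnancy cell 71, with Tap1 at 557 CPM, held 5 core basal and 6 pan-luminal genes.

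Tap2 (chr17:34204479-34216321), the second chain, ranged from 0 to 486 CPM in marked, from 0 to 134 CPM in unmarked and from 0 to 1821 CPM in pregnancy cells. Means of 11.9, 5.74 and 36.0 CPM gave log2 ratios of 1.07 and 1.55. Pregnancy cell 1 held 71.3% of the sum of its set, and without the highest cell of each group the ratios were 0.36 and 0.60. The share of cells with a read after thinning was 8.64, 15.5 and 9.86%, so it did not follow the means.

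Psmb9 (chr17:34182030-34187330), the inducible counterpart of Psmb6, was nearly absent from all groups. It was read in 6 of 81 marked, 4 of 58 unmarked and 2 of 71 pregnancy cells, with a highest value of 679, 402 and 352 CPM. Its highest cell held 90.2, 79.1 and 96.0% of its sum, and means of 9.29, 8.75 and 5.17 CPM are in effect values of 1 cell each. The unmarked cell concerned, cell 130, held 0 of the 11 core basal and 6 of the 7 pan-luminal genes at 100 CPM. Nlrc5 (chr8:94434335-94527272), the class I transactivator, ranged up to 594 CPM in marked, 850 CPM in unmarked and 253 CPM in pregnancy cells, with means of 25.4, 24.8 and 12.4 CPM. Its log2 ratios were -0.66 and -0.64, but it was read after thinning in 13.6, 13.8 and 15.5% of cells.

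**Figure D3:**
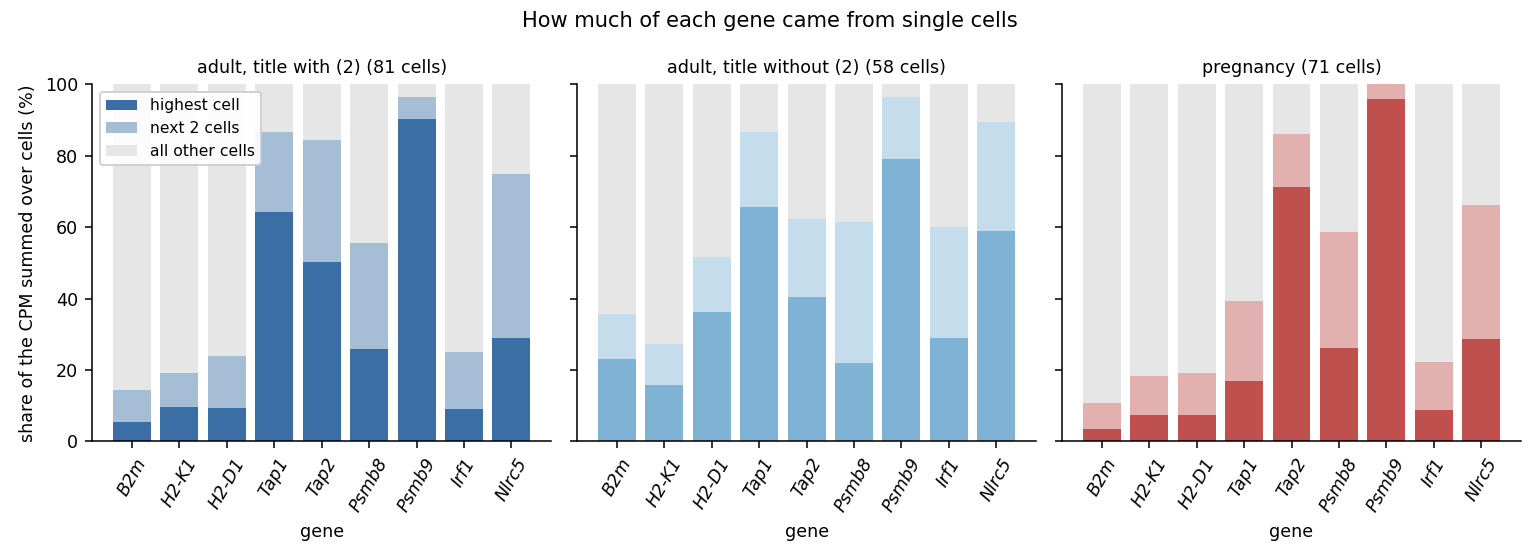
Share (%) of the CPM summed over cells that came from the highest cell, the next 2 cells and all other cells, for each of the 9 genes in the marked adult, unmarked adult and pregnancy sets. The highest cell held 5.47% of B2m but 90.2% of Psmb9 in marked cells, and 71.3% of Tap2 in pregnancy cells.

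Past 2-fold against both adult sets, 2 of the 9 members were higher in pregnancy, Psmb8 and Tap2, and 0 were lower. Of the 6 members whose mean reached 50 CPM in adult or pregnancy cells, 1 was higher, Psmb8. It reached that mean in pregnancy cells only, at 158 CPM beside 29.7 CPM over all adult cells. Its place among the 6 thus rests on the set where it was high. Of all 4548 genes that reached 50 CPM in adult or pregnancy cells, 10.1% were higher and 6.02% lower by the same rule. The count among the 6 has to be read against these shares. The count among the 9 had no minimum mean, and without one 3.64% of all 25136 genes were higher and 1.75% lower. With a minimum mean of 10 CPM, 9.83% of 9306 genes were higher and 4.72% lower. The median log2 ratio of the 9 members over all adult cells was 0.24, beside 0.05 for the 4548 genes with a mean of 50 CPM. The adult sets differed as well. Of the 5 members whose mean reached 50 CPM in adult cells, 1, Tap1, was more than 2-fold lower in unmarked cells, where 16.7% of 4578 genes were lower and 18.9% higher.

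**Figure D4:**
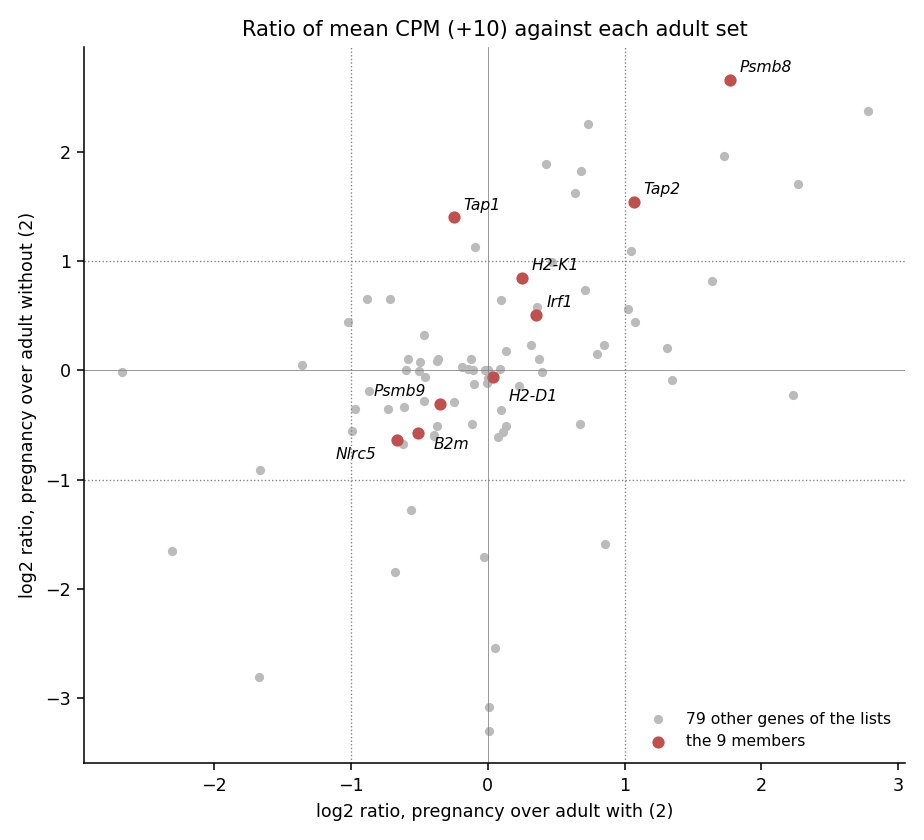
Log2 ratio of mean CPM, with 10 CPM added, of pregnancy over marked (horizontal) and over unmarked adult cells (vertical), for the 9 members in red and 79 other genes of class I presentation, the proteasome and the interferon response in grey, with dotted lines at 2-fold. Psmb8 and Tap2 lie past 2-fold on both axes, and Tap1 at -0.25 and 1.40.

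The inducible subunits were compared with their constitutive partners as reads per kilobase summed over cells. Psmb8 made up 46.3% of Psmb8 and Psmb5 in marked cells (43.0 to 49.7%), 21.7% in unmarked cells (18.3 to 25.3%) and 82.2% in pregnancy cells (80.8 to 83.6%). Psmb5 itself had means of 26.9, 40.6 and 29.5 CPM, and differed less between groups than Psmb8. Without pregnancy cells 20, 27 and 28 the pregnancy share was 60.9%. Psmb9 made up 2.06, 3.88 and 1.17% of Psmb9 and Psmb6. The third inducible subunit, Psmb10, went the other way, with 60.3, 59.7 and 33.6% of Psmb10 and Psmb7, but without unmarked cell 169, at 5185 CPM of Psmb10, the unmarked share was 35.7%. In pregnancy 76.4% of the summed CPM of Psmb10 came from 1 cell. Of the 1039 Psmb10 reads of the marked set, 486 came from marked cell 97. Over all 3 pairs the inducible share was 13.7% in marked, 19.8% in unmarked and 29.0% in pregnancy cells. From mean CPM over cells, which gives shallow cells equal weight, it was 12.9, 26.9 and 25.8%, so the order of unmarked and pregnancy cells was not kept. It was 11.6% in unmarked cells without cell 169 and 16.9% in pregnancy cells without cells 20, 27 and 28.

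**Figure D5:**
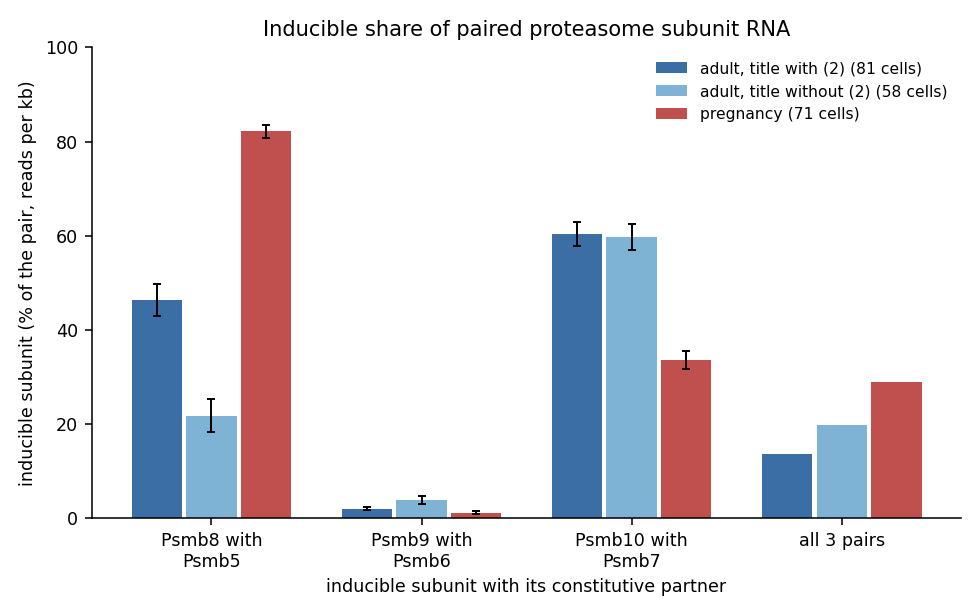
Inducible subunit as a share (%) of itself and its constitutive partner, from reads per kilobase summed over the cells of each set, with exact 95% intervals of the read counts for single pairs. Psmb8 made up 82.2% of its pair in pregnancy, and Psmb9 under 4% of its pair in each set.

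Rank correlations between members over cells were low. Tap1, Tap2, Psmb8, Psmb9 and Nlrc5 had a median of 0 in each set, so most of their cells are tied. For pairs with these genes, a low value cannot tell a weak relation from missed reads. Of the 36 pairs of members, the Spearman correlation of log2(CPM + 10) was 0.3 or more in 0 pairs over 81 marked, 3 over 58 unmarked and 2 over 71 pregnancy cells, and its median was 0.05, 0.15 and 0.06. The highest value was that of Tap1 with Psmb8 in pregnancy, 0.41. Of 10 pregnancy cells with Tap1 at 100 CPM, 8 held a Psmb8 read, beside 29 of all 71. Tap1 and Psmb9, which share a promoter window, were together at 100 CPM in 1 cell of 210, marked cell 69, with 4406 CPM of Tap1, 679 CPM of Psmb9 and 4665 CPM of H2-K1. Of 7 marked cells with Tap1 at 100 CPM, 2 held a Psmb9 read, beside 6 of all 81, and the 2 pregnancy cells with a Psmb9 read are too few for such a comparison. The cells of a group share preparation, and the correlation of a member with depth or mitochondrial share ran from -0.33 (B2m with depth in unmarked cells) to 0.41 (B2m with mitochondrial share in unmarked cells), a range as wide as that between members.

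A few cells held many members or stood far above the rest. Pregnancy cell 1 held 7 of the 9 members at 100 CPM, among them Tap2 at 1821, Irf1 at 2875, H2-D1 at 2010 and Tap1 at 560 CPM. It also held Gbp2 at 733, Irgm1 at 1499 and Cxcl10 at 157 CPM, which interferon induces, and 9 core basal genes. Pregnancy cell 27 and unmarked cell 145 held 7 members too, and of 27 interferon-stimulated genes (the 30 of the list without Ifitm2, Ifitm3 and Ly6e) cell 1 held 8 at 100 CPM, cell 27 held 0 and cell 145 held 3. Unmarked cell 156 held B2m at 19295 and Irf1 at 10170 CPM with Cxcl9 at 4872, Gbp7 at 4350 and Ifit1 at 2090 CPM. It had 5 of the 11 core basal genes, 1 of the 8 endothelial genes (Pecam1 at 219 CPM) and 0 of the immune genes at 100 CPM. Its Acta2 was at 304 CPM, beside a mean of 9906 CPM in the unmarked set. Marked cell 97 held H2-D1 at 5719, Gbp7 at 2933 and Psmb10 at 1508 CPM but Irf1 at 37.2 CPM. The median cell held 3, 3 and 4 members at 100 CPM in the marked, unmarked and pregnancy sets. Adult cells 19, 156 and 169 were chosen after their values were seen, and without them the class I share of reads was 0.285% in marked and 0.199% in unmarked cells.

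The other genes of the pathway were counted with no minimum mean, and by that rule 3.64% of all 25136 genes were past 2-fold higher and 1.75% lower against both adult sets. Among 16 further class I heavy chains and relatives, 1 was past 2-fold higher, Mr1, which presents vitamin metabolites, at 2.86, 9.03 and 52.0 CPM, and 42.7% of its pregnancy sum came from 1 cell. The others were low in all groups, with H2-T10, the most abundant in marked cells apart from H2-M2, at 44.2, 23.8 and 19.7 CPM. Fcgrt, a receptor for antibodies, had 6.09, 33.5 and 31.0 CPM and H2-T23, a non-classical heavy chain, 7.30, 27.2 and 33.0 CPM. Marked cell 19 held H2-M2 at 4305 CPM. Of 6 genes for peptide loading and trimming, 0 passed, and the chaperone Canx was abundant at 3710, 3806 and 3122 CPM. Calr had 353, 559 and 621 CPM, and the disulfide isomerase Pdia3 273, 425 and 501 CPM. Of 7 proteasome core and activator genes, 0 passed, with Psmb6 at 523, 379 and 402 CPM and the activator subunit Psme1 at 121, 141 and 90.1 CPM.

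Of 6 interferon genes searched, 4 were at 0 in all retained cells, Ifng, Ifne, Ifnl2 and Ifnl3, which in the pregnancy set allows a share of up to 4.23% of cells with a read of any one of them. Ifnk and Ifnb1 had means of at most 3.02 CPM. Of 12 genes of interferon receptors and signalling, 1 was past 2-fold lower, Ifngr1, a chain of the interferon gamma receptor, at 89.9, 210 and 21.4 CPM. In the unmarked set 83.7% of Ifngr1 came from 1 cell, and without it the mean was 34.8 CPM, less than 2-fold above pregnancy. The kinase Jak1 was even across groups, at 751, 726 and 823 CPM, and Ifnar2 had 24.5, 179 and 52.6 CPM. Of 8 other genes of the interferon regulatory factor family and its partners, 1 was past 2-fold higher, Irf3, at 3.89, 8.28 and 85.2 CPM, although it was read in 24.7, 31.0 and 33.8% of cells. Irf2bp2 and Irf2 had 134 and 60.7 CPM in pregnancy.

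Among 30 interferon-stimulated genes, 2 were past 2-fold higher and 1 lower. Of the 10 with a mean of 50 CPM, 0 were higher and 1, Ifi35, was lower. Of all 4548 genes with that mean, 10.1% were higher and 6.02% lower. Cxcl10, a chemokine, had 7.49, 4.80 and 47.8 CPM, and Ifit2 2.96, 2.54 and 16.8 CPM, and both were read in 11.3% of pregnancy cells. Ifi35 was lower in pregnancy, at 67.3, 39.2 and 5.64 CPM. At least 3 of the 30 reached 100 CPM in 95.1% of marked, 84.5% of unmarked and 93.0% of pregnancy cells. Ifitm3 (4971, 3283 and 3289 CPM), Ly6e (2639, 1724 and 1344 CPM) and Ifitm2 (975, 835 and 896 CPM) carried these counts. Without those 3 genes, an alternative chosen after seeing the data, the shares were 16.0% (8.83 to 25.9%), 15.5% (7.35 to 27.4%) and 23.9% (14.6 to 35.5%), with intervals that overlapped. After thinning, at least 3 of the 27 had a read in 42.0% (31.1 to 53.5%), 51.7% (38.2 to 65.0%) and 69.0% of cells (56.9 to 79.5%). These intervals cover counting error only. With 1 sample a group the cells are not replicates of a stage. Intervals that overlap or stand apart therefore cannot decide whether the stages differ.

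Markers of other cells differed between the sets. Of 11 core basal genes, all with a mean of 50 CPM, 2 were past 2-fold higher in pregnancy, Mylk and Trp63, and 1 was lower, Krt17. Of all 4548 genes with such a mean, 10.1% were higher and 6.02% lower. Of 7 pan-luminal genes 0 were higher and 1, Krt19, was lower, and of 8 fibroblast genes 1, Pdgfra, was higher and 0 were lower. The pan-luminal and fibroblast lists were counted with no minimum mean, by which 3.64% of all 25136 genes were higher and 1.75% lower. The median log2 ratio of the pan-luminal genes was -0.73 over all adult cells, -0.13 over marked and -0.83 over unmarked cells. For the fibroblast genes it was -0.64 over all adult cells, but it changed sign with the adult set, at 0.53 over marked and -1.46 over unmarked cells. MHC class II genes, which antigen-presenting cells use, had a mean of 566, 0 and 17.8 CPM for H2-Aa, and marked cell 19 held 45247 CPM of it, beside B2m at 6127 and H2-D1 at 2033 CPM. Endothelial genes had a read in 9.88% of marked, 48.3% of unmarked and 28.2% of pregnancy cells, and fibroblast genes in 46.9, 74.1 and 100% of cells, with Dcn at a mean of 107, 677 and 1113 CPM. Pdgfra rose likewise, at 0.06, 12.0 and 60.0 CPM, and no other fibroblast gene but Dcn had a higher mean in pregnancy. Col1a1, Col1a2, Col3a1, Lum and Dpt were highest in unmarked cells, with Col1a2 at 0.39, 133 and 1.94 CPM. Pdgfrb was highest in marked cells, at 62.3, 8.48 and 29.5 CPM. The summed CPM of the 8 endothelial genes had a median of 0 in each set and a highest value of 71.8, 6643 and 178 CPM. That of the 8 fibroblast genes had a median of 0, 28.8 and 619 CPM and a highest value of 4688, 38217 and 5782 CPM. The part of these reads in the levels of the members was not tested.

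The genes most like the members over cells were found by the smallest Spearman correlation in the 3 groups, among 3675 genes read in at least 25% of the cells of every group. For summed B2m, H2-K1 and H2-D1 they were Psme2, Mapkapk2, Odc1, Map2 and Psmb8, with smallest values from 0.16 to 0.21. For Irf1 they were Dll1, Egr1, Trp63, Slc16a1 and Irgm1, from 0.19 to 0.22, and for Psmb8 they were Naa50, Pcna, Ctps, Rnf13 and Irgm1, from 0.21 to 0.25. The smallest values are weak, and in single groups the correlation with Irf1 reached 0.52 for Dll1 over 71 pregnancy cells and 0.38 for Egr1 over 58 unmarked cells. They are descriptions only.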

How the data were processed

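The values were counts deposited by the authors, whole numbers of read pairs for every Entrez gene in every cell, not normalized. The authors mapped read pairs to mm10 with Subread and assigned them to genes with featureCounts, using a RefSeq annotation that comes with it, and the submitters' notes give Subread 1.5.0. Whether counting used strand is not given in the sources used here, and the counts carry no molecular identifiers, so PCR copies are counted and intervals cover counting error only. Symbols were found for 25275 of 27179 IDs in the RefSeq annotation of GRCm38, and the other 1904 IDs held 1.66% of reads. After the study's filter, 15 mitochondrial and 124 ribosomal protein genes and IDs without a symbol were left out. Adult cells had 41 to 459260 reads in total and pregnancy cells 24054 to 529822, and the filter of 50000 reads and 1000 genes retained 210 of 312 cells. No doublet caller was run, and no 2 cells had identical counts.

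Groups came from the labels. Means weighted cells equally, and log2 ratios of mean CPM used a pseudocount of 10 CPM, which understates changes of low genes. A gene was called past 2-fold when it passed against each adult set in the same direction. With 1 sample a group no test was made. Sums of reads per kilobase used the exon lengths in the files. Thinning drew 50000 reads per cell without replacement. In the other lists of the pathway, the named genes are the 3 with the highest mean and each gene past 2-fold against both adult sets, marker lists are given mostly as counts, and the genes of single cells, Psmb10 and Psmb5 with their values, were named besides. Some items that the rule would name are not reported here. The members and lists were chosen with earlier results of these data known. Python 3.11.15, numpy 2.4.6, pandas 2.3.3 and scipy 1.17.1 were used, and edgeR and DESeq2 gave scaling factors for sums per group as alternatives. Steps were tested on simulated data. The series table of counts was not used, since its column names do not match the sample titles, and it was not needed beside the counts of single cells.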

Additional observations from a re-analysis of the deposited data

Results flagged for a closer look

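Reads of B2m, H2-K1 and H2-D1 were also present in the 102 cells that the filter left out and that no comparison uses. They made up 0.197% of assigned reads in 98 adult cells (interval 0.189 to 0.206%) and 0.179% in 4 pregnancy cells (0.153 to 0.209%). They are given because no comparison covers these cells. Of the adult cells left out, 31 marked cells had 0.131% and 67 unmarked cells 0.239%.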

How the results depend on the processing

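No paired analysis was possible because each sample is 1 cell, the numbers in the titles only name cells, and no test was made. With 1 sample a group no replicate could be left out, and single cells were left out instead. The count of members past 2-fold higher, 2 in the report, was 1 with 100000 reads and 1500 genes, with all genes kept in the total, with DESeq2 size factors, with reads summed over cells, after thinning and without the highest cell of each group, each time Psmb8. It was 1, Irf1, with log2 values averaged over cells, and 0 with a pseudocount of 100 CPM. It stayed 2 under the other alternatives, but without the 3 highest cells these were Tap1 and Psmb8. The count past 2-fold lower, 0 in the report, was 1, Nlrc5, with under 30% mitochondrial reads and at 1.5-fold. The median log2 ratio of the members ranged from 0.01 to 0.53 over the alternatives, beside 0.04 over marked and 0.51 over unmarked cells in the report's setting. The share of all genes past 2-fold was 9.83% higher and 4.72% lower with a minimum mean of 10 CPM, and 3.64 and 1.75% with none.

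In the order marked, unmarked and pregnancy, the class I share of reads was 0.297, 0.187 and 0.251% with 100000 reads and 1500 genes, and 0.282, 0.205 and 0.250% with at least 6 core basal genes. It was 0.285, 0.254 and 0.254% with fewer than 3 immune, endothelial and fibroblast genes, and 0.253% in pregnancy with under 30% mitochondrial reads. It was 0.255, 0.192 and 0.185% with all genes in the total, 0.271, 0.268 and 0.243% after thinning, and 0.285 and 0.199% without adult cells 19, 156 and 169, chosen after seeing the data. The share of cells with at least 3 of 30 interferon-stimulated genes was 93.1% in unmarked cells with 100000 reads and 1500 genes and 100% in pregnancy with under 30% mitochondrial reads. It was 98.8, 96.6 and 100% at 10 CPM, 84.0, 62.1 and 70.4% at 500 CPM, 100, 96.6 and 100% with 1 thinned read, 100, 94.8 and 100% with 2 genes, 39.5, 24.1 and 47.9% with 5 genes, and 16.0, 15.5 and 23.9% without Ifitm2, Ifitm3 and Ly6e, chosen after seeing the data. The inducible share over all 3 proteasome pairs was 12.9, 26.9 and 25.8% from mean CPM over cells. In unmarked cells it was 6.65% with 100000 reads and 1500 genes, 10.8% with at least 6 core basal genes and 11.6% without cell 169, and in pregnancy cells it was 32.6% with under 30% mitochondrial reads and 16.9% without cells 20, 27 and 28, the last of each chosen after seeing the data. The mean share of cells with a member was 47.1, 46.6 and 54.0% at 10 CPM, 22.9, 16.3 and 24.4% at 500 CPM and 46.5, 45.2 and 52.3% with 1 thinned read, beside 36.6, 30.8 and 41.6% at 100 CPM. The cause of these shifts was not tested.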
